A study of Mus musculus with 4 samples.

Results

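The genes that build, load and supply peptides to MHC class I were compared in CD45+ immune cells from the fat of mice fed a normal diet (ND) or a high-fat diet (HFD). The set was fixed by gene name and holds 10 genes, H2-K1, H2-D1, B2m, Tap1, Tap2, Tapbp, Psmb8, Psmb9, Psmb10 and Nlrc5, out of 35869 genes listed in the deposited values. All 10 were among the 16849 genes tested, which had at least 1 TPM in at least 2 libraries. TPM, the unit of all levels here, is a length-corrected share of the transcripts of a library. The RNA came from the epididymal white adipose tissue (eWAT) of male wild-type (WT) C57BL/6 mice. The diets began at 8 weeks of age and lasted 12 weeks, the HFD taking most of its calories from fat. Each diet had 2 libraries. The digested fat was enriched for CD45+ cells with magnetic beads and not sorted further, so macrophages, lymphocytes and dendritic cells (DCs) share one RNA pool. How many mice stand behind a library is not given in the sources used here, so the p-values measure only the spread between these libraries, which may be technical.

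MHC class I shows peptides from inside the cell to CD8 T cells and NK cells. The peptides are cut by the proteasome, pumped into the endoplasmic reticulum by the transporter TAP, and fitted onto a heavy chain and beta-2 microglobulin with the help of tapasin. In immune cells and under interferon gamma, inducible catalytic subunits take the place of the constitutive ones in the proteasome, which is then called the immunoproteasome, and the transactivator Nlrc5 drives many genes of this route. Most immune cells of fat carry this machinery, macrophages, T cells and DCs among them.

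All 10 genes had both HFD values below both ND values, an arrangement that 32.8% of all genes tested showed. In limma, fitted across all genes with Benjamini-Hochberg adjustment, 9 of the 10 were lower in HFD with an adjusted p-value under 0.05, against 14.1% of all genes. Of these, 5 were also at least 1.5-fold lower and are called changed here (Nlrc5, Psmb9, Tap1, Psmb8 and H2-K1), against 10.3% of all genes called lower. None was called higher, where 8.08% of all genes were called. The median log2 fold change of the 10 genes on the log2(TPM + 1) scale was -0.58, and that of all genes tested was 0.06. These calls hold for the 4 libraries together. With either ND library left out, 0 genes of the whole table were called in limma, while 7 of the 10 had an unadjusted p-value under 0.05, against 22.9% of all genes without ND replicate 1 and 23.9% without ND replicate 2. All 10 stayed lower in HFD in both fits. With all 4 libraries and median-ratio scaling, only Nlrc5, Psmb9 and Tap1 kept an adjusted p-value under 0.05. With the replicate number as a block, only Tap1, Psmb8 and Psmb9 did. With no filter on low values, H2-D1 and B2m had adjusted p-values of 0.0641 and 0.0548 in limma.

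**Figure D1:**
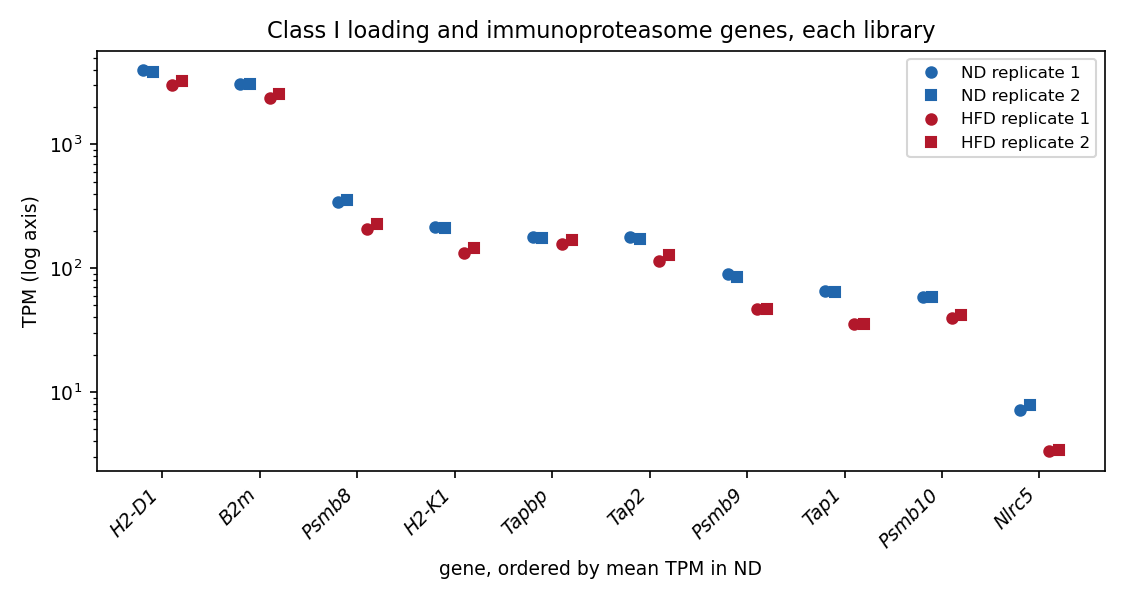
TPM of the 10 genes in each library, on a log axis, ordered by their mean in ND (blue, ND; red, HFD; circles, replicate 1; squares, replicate 2). The red points lie below the blue ones for every gene, widely for Nlrc5, Psmb9 and Tap1 and narrowly for Tapbp.

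The libraries differed between the diets in the markers of several cell types as well. The counts of called markers below stand against 10.3% of all genes called lower and 8.08% called higher. A count of 1 in a list is not read as a change. The gene of CD45 itself, Ptprc, stood at 54.5 and 59.4 TPM on ND and at 55.3 and 53.7 on HFD, and macrophage markers made up the largest of the marker lists, with 8 genes summing to 17017 and 16455 TPM on ND and 14163 and 15000 on HFD, 1 of them called lower and 2 higher. All 5 T cell markers tested were called lower, their sum going from 127.9 and 137.1 TPM to 16.8 and 29.9 TPM. Likewise, all 5 NK cell markers (74.8 and 80.5 TPM on ND, 16.1 and 15.1 on HFD) and all 5 B cell markers (115.6 and 114 TPM on ND, 23.1 and 27.1 on HFD) were called lower. The summed general DC markers stood at 420.8 and 448.9 TPM on ND and at 88.7 and 104.7 on HFD, with 2 of 4 called lower. Fibroblast markers, with 5 of 7 called higher, summed to 534.9 and 574.5 TPM on ND and to 2863 and 5724 on HFD, and spermatid markers summed to 6460 TPM in HFD replicate 1 against 1734 to 1995 TPM in the other libraries. Without that library 4 of the 10 class I genes were called, against 18.1% of all genes, and without HFD replicate 2, the one highest in fibroblast markers, 6 were, against 25.1%. The remaining lists stood in HFD at 91.1% of ND for pan-leukocyte genes, 60.4% for plasmacytoid DCs, 24.5% for CD8 T cells, 33.7% for neutrophils, 123% for endothelial cells and 67.2% for erythroid cells. Some sums rest on 1 gene. Without Batf3 the conventional DC 1 list, at 36.7% of ND with it and with 1 gene called lower and 1 higher of 5, summed to 19.2 and 19 TPM on ND and 18.8 and 21.8 on HFD. Without Fabp4 the adipocyte list, at 132% with it and with 1 of 5 called higher, summed to 20 and 19.5 TPM on ND and 20.1 and 13.7 on HFD. Without Cd209a the general DC list summed to 53.6 and 55.9 TPM on ND and 23.7 and 46.7 on HFD. Without Bst2 the plasmacytoid DC list summed to 10.1 and 11.7 TPM on ND and 3.8 and 3.4 on HFD. No list had a gene at 0 in every library. In bulk RNA, fewer cells of a type and less RNA per cell cannot be told apart, and the part of these shifts in the changes of the class I genes was not tested. When the libraries were scaled to 8 pan-leukocyte genes, of which 3 were themselves called lower and 1 higher, and which moved the median of all genes to 0.21, 9 of the 10 class I genes stayed lower in HFD, Tapbp turned to 0.07, and 3 were called lower (Nlrc5, Psmb9 and Tap1), against 7.87% of all genes.

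**Figure D2:**
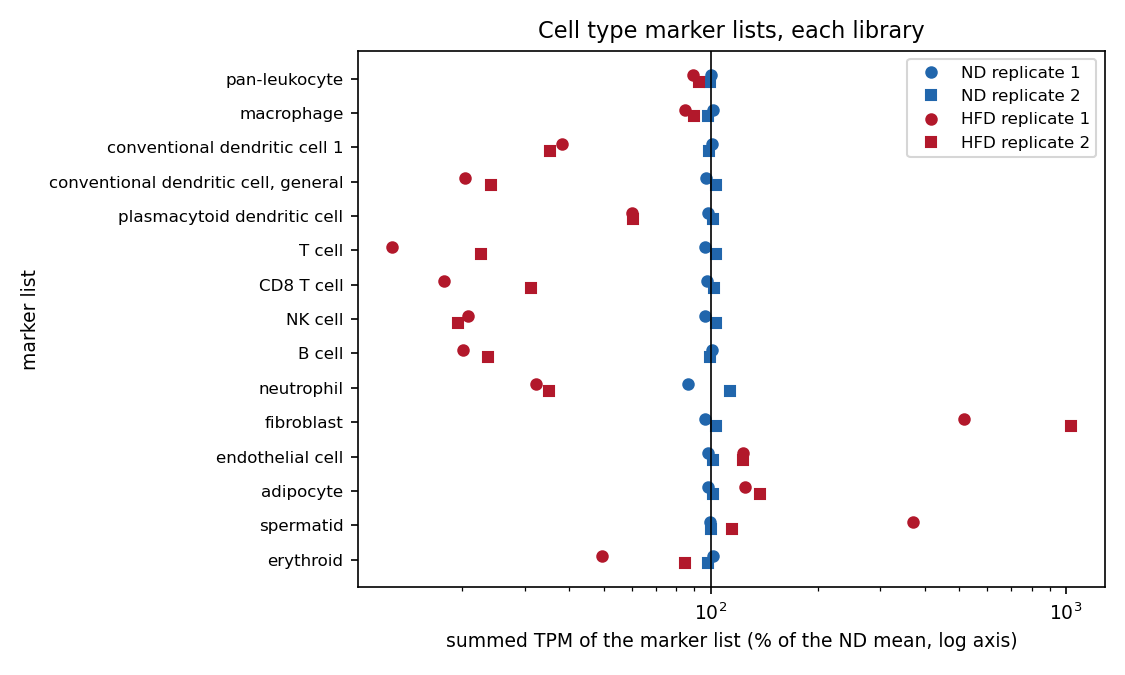
Summed TPM of each cell type marker list as a percentage of its ND mean, on a log axis, for each library (blue, ND; red, HFD). On average the HFD libraries stood at 17.6% of ND for the T cell list, 20.1% for NK cells, 21.9% for B cells, 87.1% for macrophages and 774% for fibroblasts.

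The heavy chain genes H2-K1 and H2-D1 encode the classical class I molecules that hold the peptide, and B2m encodes their invariant partner. H2-D1 and B2m were the most abundant members, at ranks 28 and 40 among all genes tested by mean TPM. The sequences just upstream of the starts of H2-K1, H2-D1 and B2m are shown as a description. Whether these sequences have a part in the changes was not tested. In the lines that follow, the 250 bases before the RefSeq start site on GRCm38.p6 are given 5′ to 3′ on the gene's strand, and capitals mark matches to an NF-kB element (letters GGGNNNTNCC) or an interferon regulatory factor (IRF) element (letters GAAANNGAAA) on either strand.
H2-K1, chr17:34000348-34000597, minus strand: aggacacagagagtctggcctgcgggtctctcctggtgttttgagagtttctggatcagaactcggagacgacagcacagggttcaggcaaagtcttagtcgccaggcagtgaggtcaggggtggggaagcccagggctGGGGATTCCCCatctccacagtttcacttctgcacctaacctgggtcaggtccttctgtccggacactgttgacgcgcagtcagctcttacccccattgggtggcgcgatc
H2-D1, chr17:35262844-35263093, plus strand: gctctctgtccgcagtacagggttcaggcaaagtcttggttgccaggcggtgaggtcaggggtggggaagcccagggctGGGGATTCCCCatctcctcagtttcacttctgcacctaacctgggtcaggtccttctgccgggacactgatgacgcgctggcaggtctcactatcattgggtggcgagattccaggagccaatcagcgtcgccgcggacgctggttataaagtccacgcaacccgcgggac
B2m, chr2:122147437-122147686, plus strand: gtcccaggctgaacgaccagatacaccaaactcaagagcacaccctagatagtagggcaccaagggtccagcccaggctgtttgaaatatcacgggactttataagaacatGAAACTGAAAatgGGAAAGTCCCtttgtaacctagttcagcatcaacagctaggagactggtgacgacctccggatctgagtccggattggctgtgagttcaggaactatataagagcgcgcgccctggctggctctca

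H2-K1 has 2 RefSeq start sites, of which the one farther upstream is used here. H2-K1 and H2-D1 carried the same run GGGGATTCCCC, which matches the NF-kB letters on both strands, 111 and 171 bases before their starts (125 bases before the other H2-K1 start). B2m carried an NF-kB match 126 bases and an IRF match 139 bases before its start. Among 32851 promoter windows of the same length, 14.9% held the NF-kB letters and 2.98% the IRF letters. A gamma-activated site (letters TTCNNNGAA, in 7.02% of windows) was matched only in Psmb8 among the 8 genes looked up, 97 bases before the start. Promoter windows were found for 8 of the 10 genes, with Tap2 and Nlrc5 missing from the table. A match of letters is a description of the sequence and not a binding site.

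H2-K1 (chr17:33996017-34000347, minus strand, 4 exon blocks in GENCODE vM21) had 215.9 and 211.8 TPM in the ND libraries and 133.4 and 145.4 TPM in the HFD libraries. The HFD mean was 65.2% of the ND mean, and the diets did not overlap. The log2 fold change was -0.62 (standard error 0.06, 95% interval -0.79 to -0.44, adjusted p = 0.0130 in limma). This call lies near the 1.5-fold limit and was lost with median-ratio scaling (-0.64, adjusted p = 0.0659), with a replicate block (adjusted p = 0.0584), with pan-leukocyte scaling (-0.43) and without HFD replicate 1 (-0.55), beside the loss of all calls without an ND library. H2-D1 (chr17:35262730-35267499, plus strand, 7 exon blocks) had 4005 and 3870 TPM on ND and 2993 and 3231 on HFD, a log2 fold change of -0.34 (95% interval -0.50 to -0.18, adjusted p = 0.0299 in limma). It was lower by less than 1.5-fold, and its value depends on the scaling, with a log2 fold change of -0.06 (adjusted p = 0.319 in limma) after quantile normalization and an adjusted p-value of 0.247 with median-ratio scaling. B2m (chr2:122147686-122153083, plus strand, 4 exon blocks) followed closely, with 3105 and 3070 TPM on ND, 2393 and 2546 on HFD and a log2 fold change of -0.32 (adjusted p = 0.0234 in limma). The ratio of B2m to the sum of both heavy chains ran only from 0.736 to 0.765 over the 4 libraries. Duplicate reads had been removed before counting, and the effect of this on such abundant genes was not tested. The level of H2-D1 was 18.3 to 18.5 times that of H2-K1 in ND and 22.2 to 22.4 times in HFD. Heavy chain genes are near-copies of each other, and 8.79% of the 50-base windows of the longest H2-K1 coding transcript, and 14.3% of those of H2-D1, occur in transcripts of another gene. Their levels are uncertain by an unknown amount, since the treatment of reads with several matches is not given in the sources used here.

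Tap1 and Tap2 encode both subunits of the peptide transporter, and Tapbp encodes tapasin, the bridge between TAP and the heavy chain. Tap1 (chr17:34187553-34197225, plus strand, 8 exon blocks) stood at 65.1 and 63.9 TPM on ND and at 35.5 and 35.4 on HFD. The fall to 55.0% of ND was far larger than the spread within a diet (log2 fold change -0.85, standard error 0.05, adjusted p = 0.00600 in limma). Tap2 (chr17:34203527-34216321, plus strand, 13 exon blocks) had 177.2 and 172.1 TPM on ND and 113.8 and 126.8 on HFD. Its log2 fold change of -0.54 (95% interval -0.75 to -0.32, adjusted p = 0.0217 in limma) passed the p-value and missed the 1.5-fold limit, which it passed without HFD replicate 2 (-0.61), after quantile normalization (-0.66) and after rescaling without the 50 most abundant genes (-0.60). The level of Tap2 was 2.69 to 2.72 times that of Tap1 in ND and 3.21 to 3.58 times in HFD. Tapbp (chr17:33915899-33929292, plus strand, 9 exon blocks) was the one member that did not pass, with 177.6 and 175.7 TPM on ND and 157.7 and 168.5 on HFD (log2 fold change -0.12, 95% interval -0.27 to 0.04, adjusted p = 0.194 in limma). Of its exon bases, 24.9% are overlapped on the other strand by the long noncoding RNA gene Gm19412, listed at 222.2 and 212.9 TPM on ND and 177.9 and 186.5 on HFD. The libraries were made with a strand-specific kit, but whether strand was used in counting is not given in the sources used here, so reads of the pair may be mixed. Tap2 shares 14.1% of its exon bases with the gene Gm15821, and Psmb8, described further on, 14.7% with Gm20496 on the other strand, with the same limit. Between the diets the order of levels shifted, from H2-K1 above Tapbp in ND to Tapbp above H2-K1 in HFD, with no overlap of the replicates in either diet. Tap2 and Tapbp overlapped in ND and not in HFD.

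Tap1 lies back to back with Psmb9, an immunoproteasome gene on the other strand, so a single short segment serves both starts. The 225 bases between the RefSeq start sites, chr17:34187331-34187555 on the plus strand of GRCm38.p6, run from Psmb9 on the left to Tap1 on the right, with NF-kB letters in capitals.
Tap1 and Psmb9: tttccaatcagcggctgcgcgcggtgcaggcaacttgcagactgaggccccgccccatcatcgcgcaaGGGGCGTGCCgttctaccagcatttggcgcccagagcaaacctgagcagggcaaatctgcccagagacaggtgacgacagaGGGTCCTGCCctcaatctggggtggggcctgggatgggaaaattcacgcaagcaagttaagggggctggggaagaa

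The segment held 2 such matches, 157 and 76 bases before the Tap1 start and thus 78 and 159 bases before the Psmb9 start, and no match to the IRF or gamma-activated site letters. Both genes moved by nearly the same amount. The ratio of Tap1 to Psmb9 was 0.727 and 0.759 in ND and 0.760 and 0.760 in HFD. In GENCODE vM21, exons of the genes overlap by 212 bases, which is 3.87% of the exon bases of Tap1 and 5.79% of those of Psmb9.

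**Figure D3:**
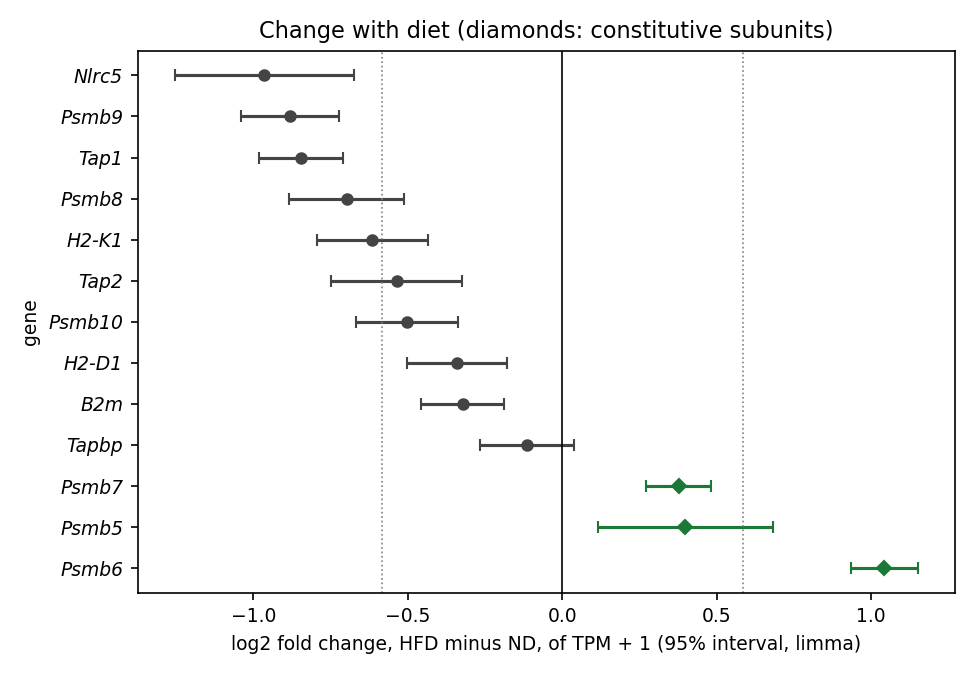
Log2 fold change of TPM + 1 between HFD and ND with its 95% interval from limma, for the 10 genes (circles) and the constitutive catalytic proteasome subunits (diamonds); dotted lines mark 1.5-fold. Only the interval of Tapbp crosses 0 among the 10, and the constitutive subunits lie on the other side of 0.

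The inducible catalytic subunits Psmb8 (LMP7), Psmb9 (LMP2) and Psmb10 (MECL-1) replace Psmb5, Psmb6 and Psmb7, in that order, in the immunoproteasome. Psmb8 (chr17:34197721-34201454, plus strand, 4 exon blocks) was the most abundant of them, with 345.2 and 357.9 TPM on ND and 207 and 226.1 on HFD. It fell to 61.6% of ND (log2 fold change -0.70, 95% interval -0.88 to -0.51, adjusted p = 0.0114 in limma). With median-ratio scaling its adjusted p-value was 0.0518, and with pan-leukocyte scaling its change was -0.52, so the call was lost in both. Psmb9 (chr17:34181987-34187764, minus strand, 4 exon blocks) went from 89.5 and 84.2 TPM to 46.7 and 46.6 TPM, or 53.7% of ND (log2 fold change -0.88, standard error 0.05, adjusted p = 0.00687 in limma). Psmb10 (chr8:105935735-105938444, minus strand, 6 exon blocks) had 58.6 and 57.9 TPM on ND and 39.6 and 42.1 on HFD (log2 fold change -0.50, 95% interval -0.67 to -0.34, adjusted p = 0.0158 in limma), lower beyond the replicate spread but by less than 1.5-fold, a limit it passed after quantile normalization (-0.63). For Psmb10 the adjusted p-value in limma was 0.0782 with median-ratio scaling and 0.0740 with a replicate block. With pan-leukocyte scaling its change was -0.32. Tap1 stood above Psmb10 in ND and below it in HFD, with no overlap in either diet.

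Of the constitutive partners, 1 of 3 was called higher, against 8.08% of all genes. Psmb6 rose from 246 and 252 on ND to 509.3 and 518.8 TPM on HFD, 206% of ND (log2 fold change 1.04, standard error 0.04, adjusted p = 0.00449 in limma). Psmb7 went from 136.4 and 136.7 TPM to 177.2 and 178 TPM (0.38, adjusted p = 0.0124 in limma), under 1.5-fold. Psmb5 had 217.8 and 211.8 TPM on ND and 262 and 306.7 on HFD (0.40, adjusted p = 0.0620 in limma), which did not pass. The 6 catalytic genes together summed to 1094 and 1101 TPM on ND and 1242 and 1318 on HFD, and the inducible ones made up 45.1% and 45.4% of this sum in ND against 23.6% and 23.9% in HFD. TPM is a value per length, so shares, ratios and orders of levels between different genes depend on the gene lengths used. These lengths are not given in the sources used here. For Psmb9, GENCODE vM21 holds 3660 exon bases, while the longest coding transcript has 1352 bases. The fold change of a single gene between the diets does not rest on its length in this way.

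Pair by pair, Psmb8 was 62.1% ± 1.07 of Psmb8 plus Psmb5 in ND and 43.3% ± 1.20 in HFD (SD, n = 2 each). Psmb9 was 25.9% ± 1.15 of its pair in ND and 8.32% ± 0.111 in HFD. Psmb10 was 29.9% ± 0.211 of its pair in ND and 18.7% ± 0.610 in HFD. On the log2(TPM + 1) scale, the inducible minus constitutive difference changed by -1.10 for Psmb8 and Psmb5, -1.92 for Psmb9 and Psmb6, and -0.88 for Psmb10 and Psmb7. The pooled SD within a diet was at most 0.068, so each change was over 10 times that spread. An exact two-sided permutation test of each pair gave p = 0.333, the smallest p that 2 libraries against 2 allow. In each pair the diets did not overlap, and Psmb8 went from the larger to the smaller part of its pair at the gene lengths used.

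**Figure D4:**
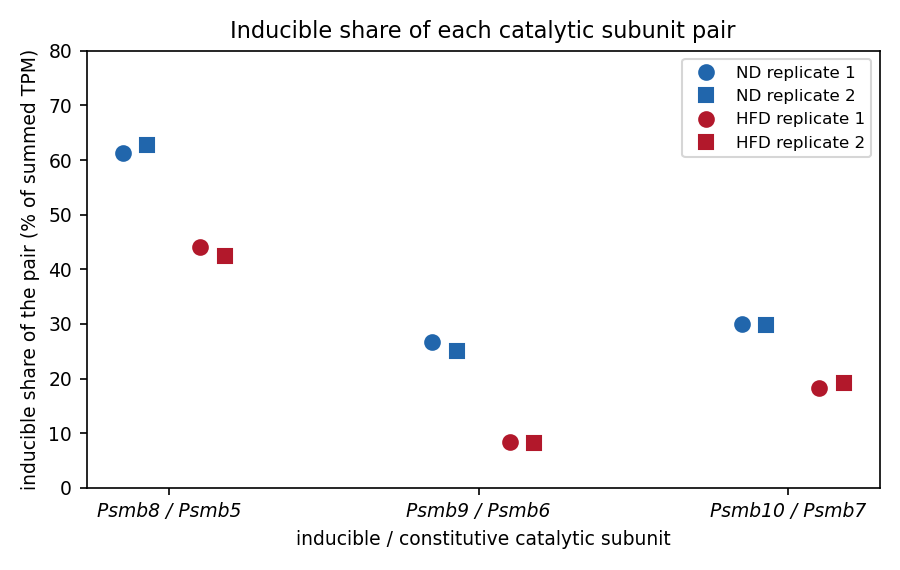
Share of the inducible subunit in the summed TPM of each inducible and constitutive pair, in percent, for each library (blue, ND; red, HFD). All HFD points lie below all ND points, from 62.1% to 43.3% for Psmb8, 25.9% to 8.32% for Psmb9 and 29.9% to 18.7% for Psmb10 on average.

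Other parts of the proteasome were followed in lists that leave out the members. Of 18 genes of the 19S regulatory particle, the cap that unfolds substrates, all had both HFD values above both ND values, against 34.1% of all genes, and 14 were higher with an adjusted p-value under 0.05, against 13.2% of all genes. Among them 4 rose past 1.5-fold, Psmd1 (log2 fold change 0.72), Psmd2 (0.68), Psmd12 (0.64) and Psmd8 (0.60), against a background of 8.08%. This number depends on the scaling, being 1 after quantile normalization, 2 after rescaling without the 50 most abundant genes and 10 after scaling to the pan-leukocyte genes, where 6.82%, 7.47% and 12.7% of all genes were called higher. Of 11 other subunits of the 20S core, 0 were called in limma and 4 had an unadjusted p-value under 0.05 (3 higher and 1 lower), against 42.3% of all genes, so the list does not stand out from the background. The most abundant, Psmb4, had 363.4 and 366.1 TPM on ND and 348.2 and 367.1 on HFD. Of 9 activator and assembly genes, 1 was called, a share near the 10.3% of all genes called lower. This was the assembly chaperone Psmg4 (-0.59), whose call was lost with a pseudocount of 5, a replicate block, median-ratio or pan-leukocyte scaling, or any 1 library left out. Psme1, a subunit of the interferon-inducible PA28 activator, had 410 and 405.9 TPM on ND and 312.2 and 344.9 on HFD (-0.31, adjusted p = 0.0469 in limma). Its partner Psme2 had 61.8 and 65.8 TPM on ND and 55.5 and 60.7 on HFD (-0.13, adjusted p = 0.269 in limma).

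Nlrc5 (chr8:94434356-94527272, plus strand, 52 exon blocks) encodes the transactivator of class I genes and was the least abundant of the 10. It had 7.1 and 7.9 TPM on ND and 3.3 and 3.4 on HFD, which correspond to approximately 859, 1107, 454 and 406 reads. It fell to 44.7% of ND (log2 fold change -0.96, 95% interval -1.25 to -0.68, adjusted p = 0.0136 in limma). The added 1 shrinks the fold change of such a low gene, which was -1.14 with a pseudocount of 0.1 and -0.58, just short of the 1.5-fold limit, with a pseudocount of 5. With a replicate block its adjusted p-value was 0.0724.

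Among 23 regulators of class I transcription and of the interferon response, 5 fell, 1 rose and 17 were not called, against 10.3% of all genes called lower and 8.08% called higher, with a median log2 fold change of -0.28. Irf1, an interferon-induced activator of class I and immunoproteasome genes, had 157.6 and 159.1 TPM on ND and 108.7 and 93.8 on HFD (-0.64, adjusted p = 0.0233 in limma). Ciita, the class II counterpart of Nlrc5, went from 12.6 and 13.1 TPM to 8.1 and 6.6 TPM (-0.74, adjusted p = 0.0322 in limma), and Stat2, part of the type I interferon signal, from 16.9 and 17.4 TPM to 10 and 9.6 TPM (-0.75, adjusted p = 0.0116 in limma). Rfx5, which joins Nlrc5 at class I promoters, was near 2 TPM in ND and had 1.7 and 1.2 TPM in HFD (-0.28, adjusted p = 0.266 in limma). Of the receptor subunits for interferon gamma, Ifngr2 was called higher, and Ifngr1 was lower by less than 1.5-fold. Ifngr2 rose from 92.9 and 93.3 TPM to 190.4 and 202.8 TPM (1.07, adjusted p = 0.00536 in limma), while Ifngr1, the most abundant gene of this list, had 492.8 and 501.2 TPM on ND and 357.4 and 401.8 on HFD (-0.39, adjusted p = 0.0393 in limma). Scaled to the pan-leukocyte genes, 2 of the 23 were called, against 20.5% of all genes, and with a replicate block 1 was, against 4.82%, so neither share is above the background. Irf1, Ciita and Stat2 each lost their call under both settings. Irf1 also lost it with no filter on low values and without HFD replicate 2 (-0.54), Ciita with no filter and with a pseudocount of 5 (-0.53), and Stat2 with a pseudocount of 5 (-0.58). The adjusted p-value of Ifngr1 in limma was 0.175 with median-ratio scaling, 0.0819 with a replicate block and 0.0578 with pan-leukocyte scaling (-0.21).

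Of the other class I and class I-like heavy chains, 16 of 19 were tested, and 10 fell, 1 rose and 5 were not called, against 10.3% of all genes called lower and 8.08% called higher. With a replicate block 5 of the 16 were called, against 4.82% of all genes. Their median log2 fold change was -0.88, beyond that of the 10 members. H2-Q6 and H2-Q7, nonclassical genes of the Qa-2 group, went from 481.1 and 486.8 TPM to 113.4 and 125.4 TPM (-2.01, adjusted p = 0.00445 in limma) and from 137.1 and 137 TPM to 31.3 and 37 TPM (-1.98, adjusted p = 0.00563 in limma). Of their 50-base windows, 32.0% and 34.9% recur in other genes, so reads may be split among them. Cd1d1, which shows lipids to NKT cells, fell from 20 and 21.3 TPM to 5.3 and 5.6 TPM (-1.75, adjusted p = 0.00529 in limma). H2-T23, which encodes Qa-1, a ligand of the NK receptor NKG2A, was the most abundant of the list, with 625.1 and 624.2 TPM on ND and 482.6 and 510.3 on HFD (-0.33, adjusted p = 0.0212 in limma). The one gene called higher was H2-M2, named after its values were seen, at 2.6 and 2.7 TPM on ND and 10.4 and 6.4 on HFD. H2-Q2 and H2-T3 were below the level needed for the test, and H2-T9 is not analysed here.

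The chaperones and trimming enzymes of class I loading, most of which serve other proteins too, had a median log2 fold change of 0.24. Of 12 genes tested, 1 was called lower, a share near the 10.3% of all genes, and 11 were not called. The gene called was Tapbpl, whose product TAPBPR edits class I peptides, with 12.3 and 14 TPM on ND and 6.9 and 7.6 on HFD (-0.78, adjusted p = 0.0228 in limma). Its call was lost with a pseudocount of 5 (-0.57), with a replicate block (adjusted p = 0.0736 in limma), and without HFD replicate 1 (0.0768), HFD replicate 2 (0.0565) or either ND library. Calr (calreticulin) had 1237 and 1226 TPM on ND and 1572 and 1725 on HFD (0.42, adjusted p = 0.0239 in limma), and Canx (calnexin) and Pdia3 (ERp57) were likewise higher with adjusted p-values of 0.0287 and 0.0398 and by less than 1.5-fold. Erap1, the aminopeptidase that trims peptides in the endoplasmic reticulum, had 31.8 and 35.2 TPM on ND and 39.6 and 41.1 on HFD (0.26, adjusted p = 0.0877 in limma). With median-ratio scaling the adjusted p-values of Calr, Canx and Pdia3 were 0.196, 0.134 and 0.315, and those of B2m and Tap2 were 0.241 and 0.0953. With pan-leukocyte scaling, which moved the median of all genes to 0.21, Calr passed the 1.5-fold limit (0.60, adjusted p = 0.00540 in limma).

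**Figure D5:**
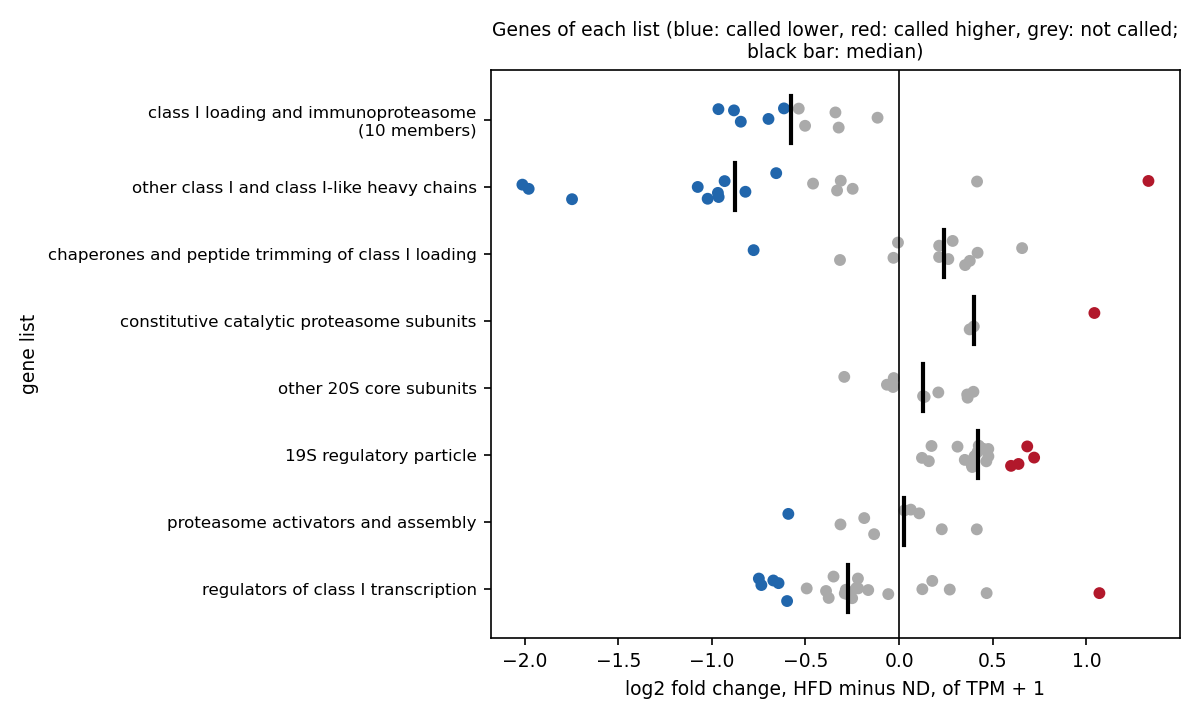
Log2 fold change of TPM + 1 between HFD and ND for each tested gene of the 10-gene set and of the surrounding lists (blue, called lower; red, called higher; grey, not called; black bar, median). The medians run from -0.88 for the other heavy chains and -0.58 for the 10 genes to 0.40 for the constitutive catalytic subunits and 0.42 for the 19S particle.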

How the data were processed

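RNA-seq libraries of bead-enriched CD45+ eWAT cells were analysed, 2 from ND and 2 from HFD mice. Per the submitters' processing notes and the study's methods, reads were trimmed (Trim Galore 0.4.2, cutadapt 1.9.1), aligned to mm10 (STAR 2.6.1e), stripped of duplicates and counted per gene (featureCounts 1.6.2). The authors deposited TPM, printed to 1 decimal. The libraries were strand-specific. The annotation and the counting settings for strand and multi-mapped reads are not given in the sources used here. The study's general statistics, made in GraphPad Prism, were not used here.

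TPM were joined by symbol, kept at 1 or more in at least 2 libraries, and compared as log2(TPM + 1) with limma 3.58.1 in R 4.3.3 (variance trend, Benjamini-Hochberg over 16849 genes). A gene was called at an adjusted p-value under 0.05 and at least 1.5-fold. The steps were tested on simulated data. TPM are shares of a library, so a gene can be lower because others rose. Depth was estimated from steps in the values of microRNA genes, at 0.0606 to 0.0711 TPM for 1 read per kb, from which the approximate read numbers follow with GENCODE vM21 lengths. No counting intervals are given.

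Members and gene lists were chosen with earlier results of these data known. Named are all members, the proteasome, loading and regulator genes fixed by list, each list's most abundant gene and up to 3 called genes with the largest change, except 1 regulator that is not reported here. Sequences come from RefSeq (GRCm38.p6). Alternatives were other pseudocounts, filters, scalings, fold limits, no variance trend, a replicate block and each library left out. Figures were drawn with matplotlib 3.10.9.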

Additional observations from a re-analysis of the deposited data

How the results depend on the processing

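Of 10 genes, 5 were called. The number was 9 with an adjusted p-value under 0.05 alone, 0 with a 2-fold limit (9 with an unadjusted p-value under 0.05, against 42.3% of all genes), 3 with median-ratio scaling and 3 with scaling to the pan-leukocyte list, where 16.7% and 20.5% of all genes were called. Of 92 genes in the surrounding lists 24 were called, 50 without a fold limit and 8 with a 2-fold limit, against 18.4%, 27.3% and 9.51% of all genes. With 1 library left out, where the lone library of a diet is assumed to vary like the others, the numbers ran from 0 to 6 for the 10 genes and from 0 to 20 for the lists, and from 0% to 25.1% for all genes. The 0 arose without ND replicate 1 or 2, when 0 genes of the table were called in limma and 3862 and 4024 had an unadjusted p-value under 0.05. The cause was not tested. Log2 fold changes of the 10 genes kept their direction in 139 of 140 alternative fits, of which 18 lost and 4 gained a call, and Tapbp turned to 0.066 with pan-leukocyte scaling. Psme2 turned to 0.046 and Psmb4 to 0.15 there, and Psmb4 ran from -0.067 to 0.0092 with 1 library left out. With a pseudocount of 5 the pair changes were -1.86 for Psmb9 and Psmb6 and -0.83 for Psmb10 and Psmb7. Depth limits none of the 10, the lowest resting on approximately 406 reads.

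Both diets carry the replicate numbers 1 and 2, but the deviations of same-numbered libraries from their diet means had a correlation across genes of -0.015, and the libraries were treated as unpaired. With a replicate block, which leaves fewer degrees of freedom, 3 of the 10 genes (Tap1, Psmb8 and Psmb9) and 10 list genes were called, against 4.82% of all genes.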
